A study of Mus musculus with 223 samples.

Results

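The 40 genes that encode the voltage-gated sodium and calcium channels of the mouse were followed in 223 single cortical interneurons (INs). The members were taken by symbol, by a rule that uses no measured value, as every Scn gene with a number and the letter a or b and every Cacna1, Cacna2d, Cacnb and Cacng gene. They made up 40 of the 43629 genes in the count table. Of these, 14 were sodium channel genes (10 alpha and 4 beta subunits) and 26 were calcium channel genes (10 alpha1, 4 alpha2delta, 4 beta and 8 gamma subunits).

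The cells came from transgenic mice on a C57BL/6 background in which regulatory sequences of Htr3a, a serotonin receptor gene, drive eGFP, which labels mainly INs of the caudal ganglionic eminence. GFP+ cells of both sexes were sorted from dissociated cortex at embryonic day 18 (E18) and postnatal days 2 and 5 (P2 and P5), captured on microfluidic chips and sequenced as full-length cDNA with read pairs of 50 bases per end. The 7 groups were E18 (82 cells, not divided into types), types 1, 2 and 3 at P2 (22, 31 and 13 cells) and types 1, 2 and 3 at P5 (34, 19 and 22 cells). The types are the assignment deposited by the authors, which was drawn from the same counts, so that a type set against the other types is a description and not a test. All animals carried the reporter, and the brains of each age were pooled, so each age was 1 sample and no test between ages or types was possible. P5 cortex was dissociated in artificial cerebrospinal fluid at room temperature, and E18 and P2 cortex alike in warmed Neurobasal medium. P5 and its dissociation therefore cannot be told apart.

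Voltage-gated sodium channels are built from a large alpha subunit, which forms the pore and carries the upstroke of the action potential, and small beta subunits that shape its gating and placement. Calcium channels are built from a pore-forming alpha1 subunit, an alpha2delta subunit that brings the channel to the membrane, and a cytoplasmic beta subunit. In developing cortex they are known for the first action potentials, for calcium entry that reaches the nucleus, and for transmitter release. Most gamma subunits named for calcium channels are now known as partners of AMPA receptors (TARPs).

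The neuronal alpha subunits are close relatives and have to be read with care in libraries of short read pairs. Over the whole transcript, 8.05% of the 50-base windows of Scn3a were also found in another sodium channel alpha transcript, compared with 7.58% for Scn2a, 5.41% for Scn1a, 5.36% for Scn9a and 0.0527% for Scn8a. The split of reads among Scn1a, Scn2a, Scn3a and Scn9a is uncertain in those windows. In the annotation, exons of several calcium channel genes overlap a gene on the opposite strand (16.0% of the exon bases of Cacnb4, 7.32% of Cacnb2, 5.86% of Cacng2 and 4.67% of Cacna1d), and reads of the partners cannot be told apart without a stranded count.

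Levels are given as RPM, which is the read pairs of a gene per 1000000 mapped read pairs. A pooled level divides the summed read pairs of a group by its summed mapped read pairs, and a cell is counted as above threshold when the gene exceeds 10 RPM in it. Cells held 3707601 to 15840130 mapped read pairs (median 9463033), and the median number of genes above 10 RPM was 2495.5 at E18, 1834, 2482 and 1437 in P2 types 1, 2 and 3, and 2258, 2738 and 2101.5 in P5 types 1, 2 and 3. The median share of mapped read pairs counted on genes was lowest in P5 type 3 (32.1%) and lay between 44.4% and 58.6% in the other groups. At least 1 of 6 interneuron markers (Dlx1, Dlx2, Dlx5, Dlx6, Gad1, Gad2) was above 10 RPM in 78 of 82 E18 cells, 62 of 66 P2 cells and all 75 P5 cells. Among the E18 cells, 12 carried at least 3 of 7 markers of excitatory neurons, and 4 cells of P5 type 2 carried at least 3 markers of glia. Markers of INs of the medial ganglionic eminence (MGE) moved with age, as at least 1 of 3 (Lhx6, Nkx2-1, Sst) was above 10 RPM in 62 of 82 E18 cells (75.6%), 14 of 66 P2 cells (21.2%) and 3 of 75 P5 cells (4%). At P2 these were 1 of 22 type 1 cells, 9 of 31 type 2 cells and 4 of 13 type 3 cells. Comparisons with E18 are therefore also given for the 20, 52 and 72 cells without such a marker, a choice made after the data were seen, and 5 of those 20 E18 cells were among the 12 with excitatory markers. All P2 cells came from library set A, which holds no other age, so P2 and its library set cannot be told apart. E18 cells fell 48, 9 and 25 into sets B, C and D, and P5 cells 15, 17 and 43. What a set stands for is not stated. Intervals are exact 95% intervals. Those of shares cover only the draw of cells from a group. Those of pooled levels take each read pair as an independent count. No molecular identifiers were used, so they do not cover the error in counting molecules. For pooled levels the intervals were narrow (Scn3a at E18, 136 RPM, 135 to 137). Neither kind says anything of the spread between animals.

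In at least 1 group, 19 of the 40 genes passed 10 RPM in 25% or more of its cells, and these are described by role. Most were high in a minority of cells and near 0 in the rest, which the dot plot of shares and pooled levels shows side by side.

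**Figure D1:**
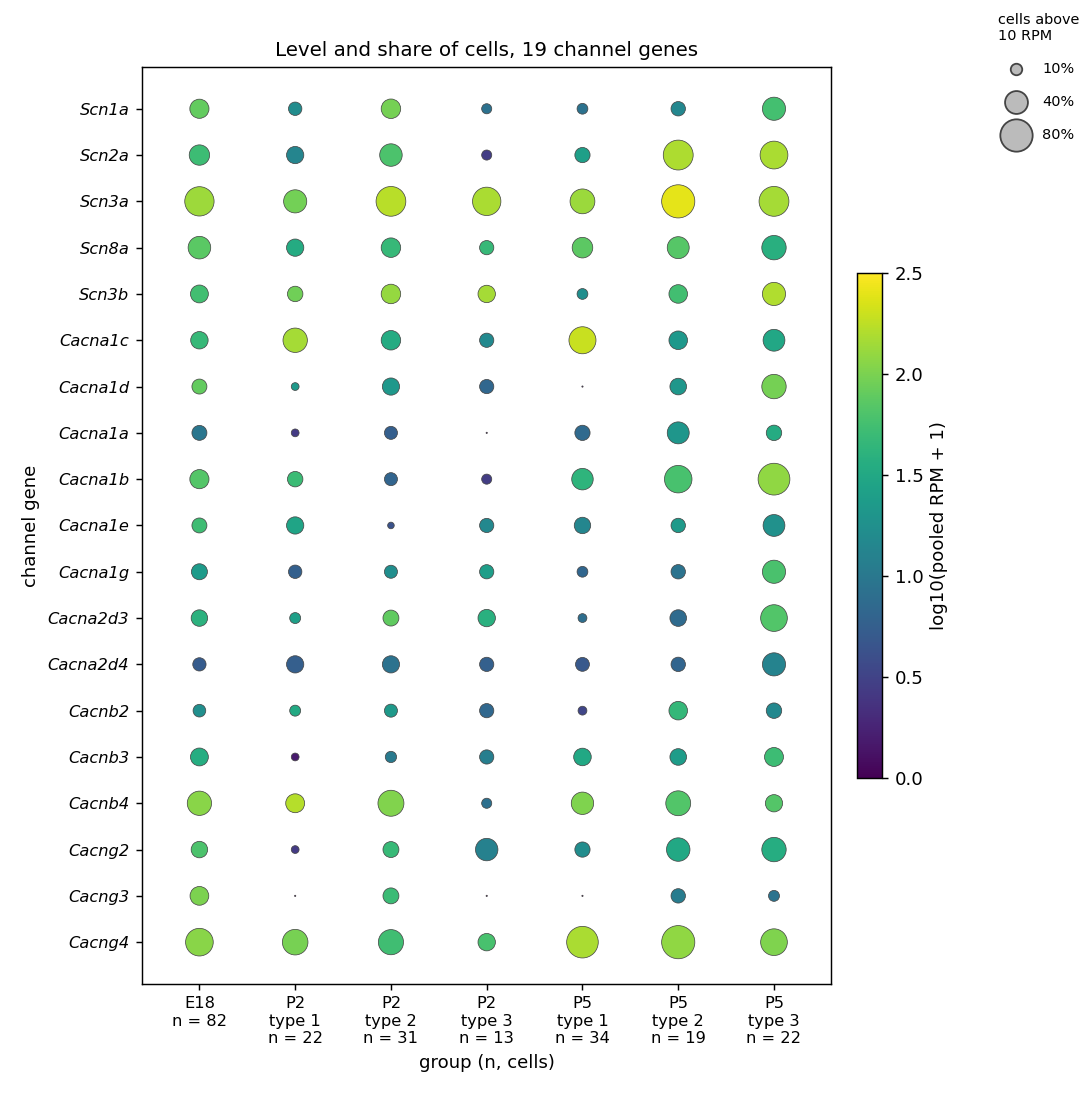
Pooled level and share of cells above 10 RPM for the 19 channel genes (rows) in the 7 groups (columns). Dot area is the percentage of cells above 10 RPM and colour is log10 of the pooled RPM plus 1. Scn3a and Cacng4 have large dots in most groups, the Cacna1c row is brightest (toward yellow, the high end) in type 1 at both postnatal ages, and Cacng3 shrinks to a speck, a share of 0, in P2 types 1 and 3 and P5 type 1.

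Scn3a, the alpha subunit known to lead in the embryonic brain, was the sodium channel gene above 10 RPM in the most cells. It was above 10 RPM in 65.9% of E18 cells (54 of 82, interval 54.6% to 76%), in 40.9%, 67.7% and 61.5% of P2 types 1, 2 and 3, and in 47.1%, 84.2% and 68.2% of P5 types 1, 2 and 3. Single cells ran from 0 to 989 RPM at E18 with a median of 49.5 RPM, and the median was 2.49, 50.4 and 48 RPM in P2 types 1, 2 and 3 and 7.18, 181 and 54.3 RPM in P5 types 1, 2 and 3. Type 1 had the lowest median at both postnatal ages and P5 type 2 the highest, but the ranges of cells overlapped in all groups because each held cells at 0. Pooled, Scn3a stood at 136 RPM at E18, at 92.6, 171 and 151 RPM in P2 types 1, 2 and 3, and at 132, 251 and 144 RPM in P5 types 1, 2 and 3. In P2 types 1 and 3 a single cell carried 40.6% and 39.8% of the Scn3a read pairs.

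Scn2a, which encodes the alpha subunit of the axon initial segment in young neurons, was above 10 RPM in fewer cells than Scn3a in every group. The share was 31.7% at E18 (26 of 82, 21.9% to 42.9%), 22.7%, 38.7% and 7.69% in P2 types 1, 2 and 3, and 17.6% (6 of 34, 6.76% to 34.5%), 68.4% (13 of 19, 43.4% to 87.4%) and 59.1% (13 of 22, 36.4% to 79.3%) in P5 types 1, 2 and 3. The median cell was at 0.526 RPM at E18 and at 0.758, 46 and 27.5 RPM in P5 types 1, 2 and 3, with highest cells at 596, 287, 646 and 952 RPM. At P5 the share was lowest in type 1, and the intervals are over cells of 1 pooled sample and are no test between types. The pooled level was 50.2 RPM at E18, 12.6, 60.9 and 1.76 RPM in P2 types 1, 2 and 3, and 24, 154 and 152 RPM in P5 types 1, 2 and 3. The 12 E18 cells with excitatory markers stood at 182 RPM of Scn2a and held 54.8% of its E18 read pairs, against 26.7 RPM in the other E18 cells.

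Scn1a, known as the sodium channel gene whose loss in INs causes epilepsy, was above 10 RPM in 28.0% of E18 cells (23 of 82), in 13.6%, 29.0% and 7.69% of P2 types 1, 2 and 3, and in 8.82%, 15.8% and 40.9% of P5 types 1, 2 and 3. The median cell was below 3 RPM in every group, while the highest cell reached 1041 RPM at E18 and 1450 RPM in P2 type 2. Pooled levels were 79.2 RPM at E18, 15.2, 93.8 and 7.63 RPM in P2 types 1, 2 and 3, and 7.81, 13.3 and 56 RPM in P5 types 1, 2 and 3. Type 2 led at P2 and type 3 at P5, although 1 cell held 48.7% and 41.6% of those read pairs. None of the 12 E18 cells with excitatory markers was above 10 RPM for Scn1a.

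Scn8a, the alpha subunit of mature initial segments and nodes, was above 10 RPM in 39% of E18 cells (32 of 82), in 22.7%, 29.0% and 15.4% of P2 types 1, 2 and 3, and in 32.4%, 36.8% and 45.5% of P5 types 1, 2 and 3. Its pooled level was 71.2 RPM at E18 and between 32.6 and 73.1 RPM in the other groups, the narrowest spread among the alpha subunits described. In P2 type 3 and P5 type 2 a single cell carried 96.7% and 79.8% of the read pairs, and without it the pooled levels were 1.62 and 14.9 RPM.

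**Figure D2:**
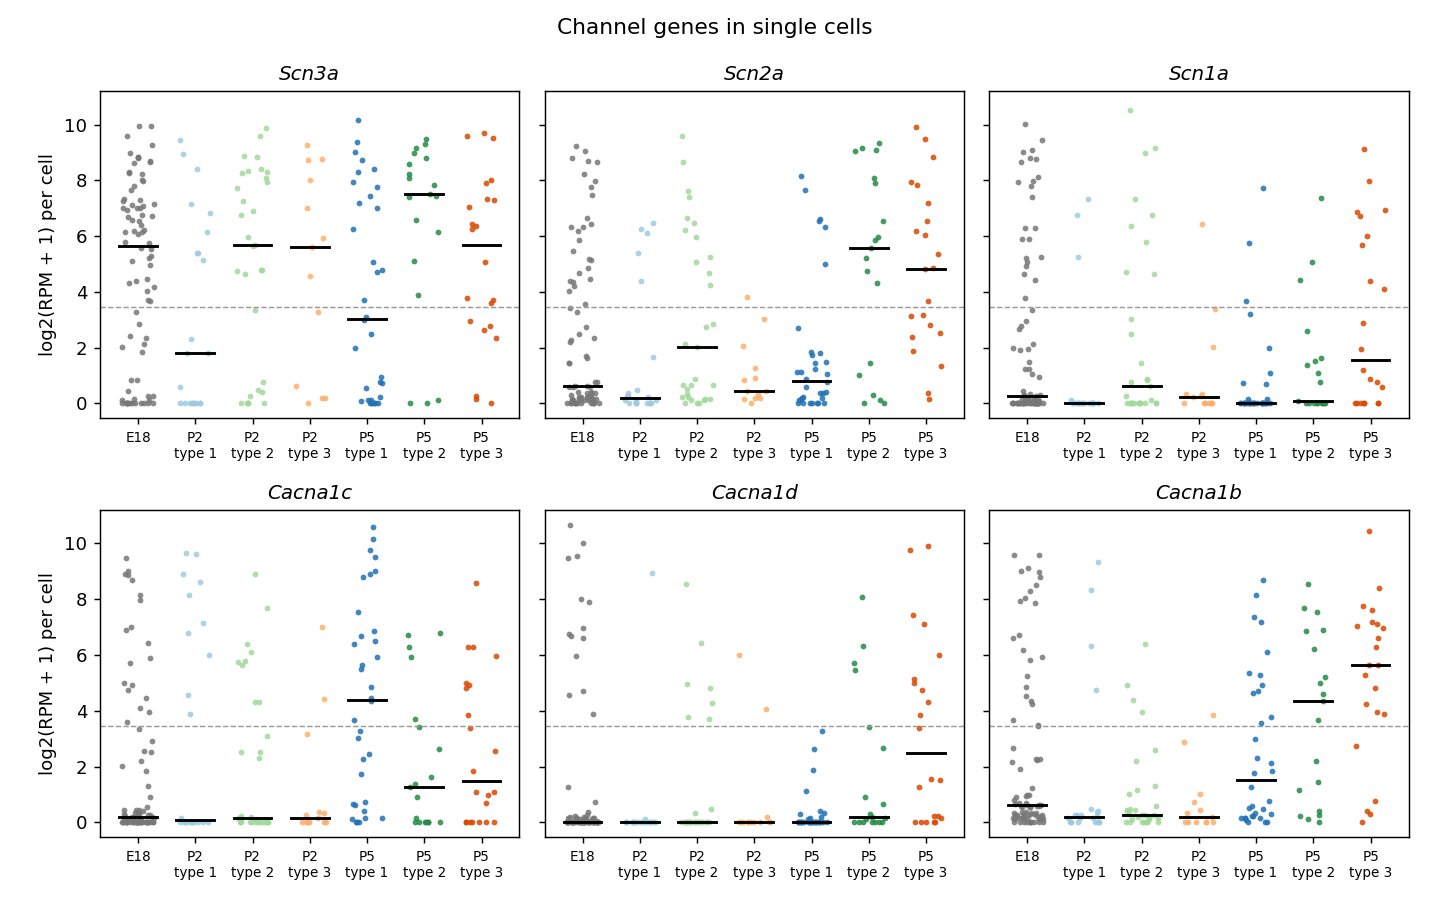
Single-cell levels of Scn3a, Scn2a, Scn1a, Cacna1c, Cacna1d and Cacna1b, as log2 of RPM plus 1 on the vertical axis, with the 7 groups along the horizontal axis. Each point is 1 cell, the black bar is the median and the dashed line marks 10 RPM. The median Scn2a bar lies above the line in P5 types 2 and 3 and below it elsewhere, Cacna1c in P5 type 1, Cacna1b in P5 types 2 and 3, and no P5 type 1 cell reaches the line for Cacna1d.

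Among alpha subunits the make-up was compared after division of each level by the exon length of the gene in kilobases. Scn3a supplied 40.1% of the summed sodium channel alpha RPM per kb at E18, 62.5%, 45.6% and 76.1% in P2 types 1, 2 and 3, and 57.5%, 52.8% and 35.7% in P5 types 1, 2 and 3. It was the leading alpha subunit in 6 of the 7 groups. In P5 type 3, Scn2a supplied 36.7%, only slightly above Scn3a, and the order turned round as a mean of the shares of each cell (Scn2a 25.6%, Scn3a 36%) and without the highest cells (33.5% and 41.7%). Scn2a supplied 14.5% at E18 and 10.2% in P5 type 1, compared with 31.7% in P5 type 2. Scn1a supplied 26.1% at E18 and 28.0% in P2 type 2 but 3.80% and 3.12% in P5 types 1 and 2. Library sets within P5 type 3 differed in which gene led, as Scn3a stood at 89.7, 313 and 124 RPM in sets B, C and D and Scn2a at 111, 428 and 114 RPM.

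**Figure D3:**
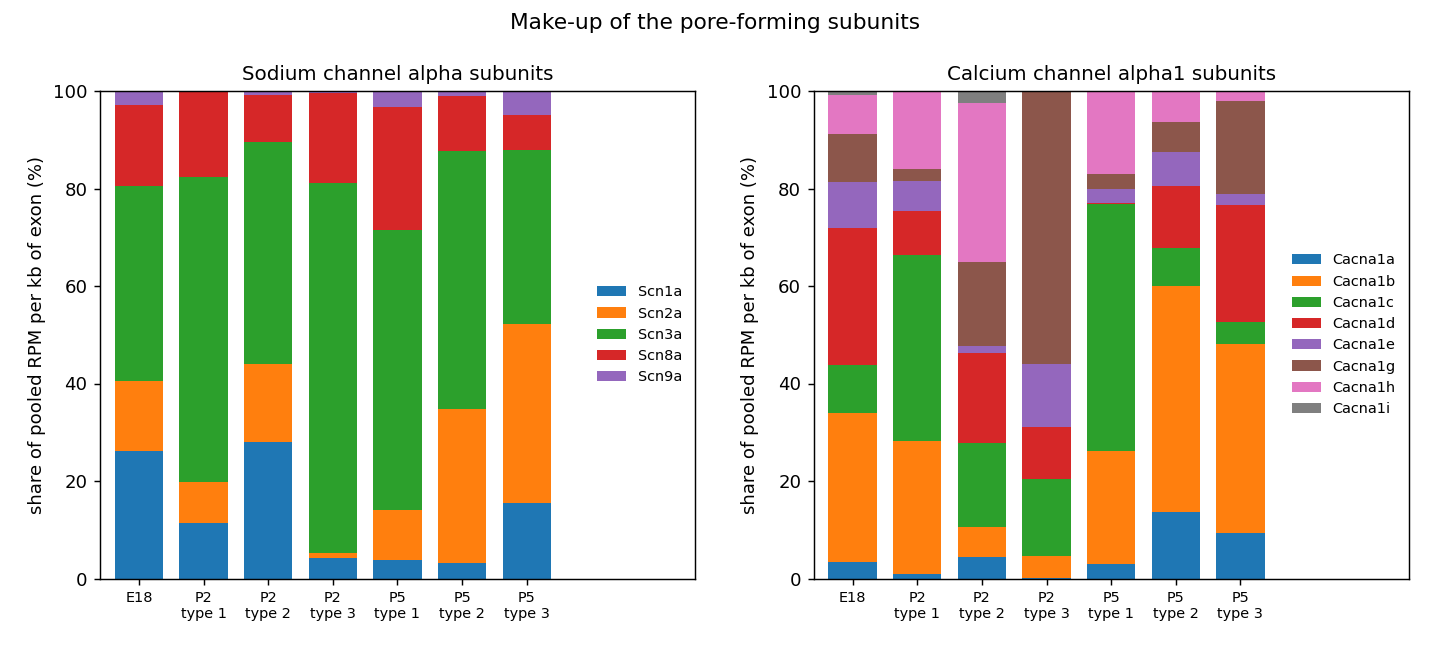
Make-up of the sodium channel alpha subunits and of the calcium channel alpha1 subunits as stacked bars, in percent of the summed pooled RPM per kb of exon, for the 7 groups. Scn3a takes 35.7% to 76.1% of the sodium bars, and Cacna1c takes 50.5% of the calcium bar in P5 type 1 but 4.52% in P5 type 3.

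Scn3b, a beta subunit that partners with alpha subunits of young neurons, was the only beta subunit gene above threshold in at least 25% of the cells of a group. Its share was 24.4% at E18, 18.2%, 29.0% and 23.1% in P2 types 1, 2 and 3, and 8.82%, 26.3% and 40.9% in P5 types 1, 2 and 3. The pooled level in P5 type 3 (158 RPM) was 74 RPM with the highest cell set aside, against 5.57 RPM in P5 type 1 treated alike. Scn2b reached 21.1% of P5 type 2 cells, and no read pair was counted for Scn4b.

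The L-type alpha1 genes Cacna1c and Cacna1d encode the channels that couple depolarisation to gene expression, and their levels parted by type. Cacna1c was above 10 RPM in 23.2% of E18 cells (19 of 82), in 45.5%, 29.0% and 15.4% of P2 types 1, 2 and 3, and in 55.9% (19 of 34, 37.9% to 72.8%), 26.3% and 36.4% of P5 types 1, 2 and 3. Cells of P5 type 1 ran from 0 to 1524 RPM with a median of 20.1 RPM, compared with medians of 1.40 and 1.86 RPM and highest cells of 109 and 382 RPM in P5 types 2 and 3. The pooled level was 46.4 RPM at E18. It was 145 RPM in P2 type 1 against 32.7 and 14.1 RPM in P2 types 2 and 3, and 192 RPM in P5 type 1 against 20.5 and 29.8 RPM in P5 types 2 and 3. Type 1 was thus highest at both postnatal ages, and with the highest cell set aside it stood at 107 RPM at P2 and 155 RPM at P5.

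Cacna1d, which encodes the L-type channel that opens at lower voltage, was above 10 RPM in 17.1% of E18 cells (14 of 82), in 4.55%, 22.6% and 15.4% of P2 types 1, 2 and 3, and in 0%, 21.1% and 45.5% (10 of 22, 24.4% to 67.8%) of P5 types 1, 2 and 3. In P5 type 1 the highest of 34 cells was at 8.75 RPM, and a count of 0 cells above threshold allows a share of up to 8.82% when 3 cells are taken as the limit (exact interval up to 10.3%). Pooled, Cacna1d was at 0.589 RPM in P5 type 1, 20.3 RPM in P5 type 2 and 94.2 RPM in P5 type 3. Type 1 was thus the P5 type with the highest Cacna1c and the lowest Cacna1d level. In P2 type 1 a single cell held 99.98% of the Cacna1d read pairs. At E18 the pooled level was 101 RPM in the 62 cells with an MGE marker and 6.62 RPM in the other 20.

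Cacna1b, the N-type subunit that drives transmitter release at young synapses, had the highest pooled level per kb of exon among the P/Q, N and R types in 6 of the 7 groups. As a mean of the shares of each cell this held in 4 groups, and Cacna1e exceeded it in all P2 types (29.2% against 17.7%, 14.7% against 11.7% and 28.3% against 15.7% of the alpha1 level). It was above 10 RPM in 28.0% of E18 cells, in 18.2%, 12.9% and 7.69% of P2 types 1, 2 and 3, and in 35.3% (12 of 34, 19.7% to 53.5%), 57.9% and 77.3% (17 of 22, 54.6% to 92.2%) of P5 types 1, 2 and 3. The median cell was at 0.529 RPM at E18, below 0.3 RPM in all P2 types, and at 1.92, 19.5 and 48.7 RPM in P5 types 1, 2 and 3. Pooled levels were 67.2 RPM at E18, 49.2, 5.38 and 1.81 RPM in P2 types 1, 2 and 3, and 41.5, 57.8 and 120.1 RPM in P5 types 1, 2 and 3. Cacna1b supplied 46.4% of the calcium alpha1 RPM per kb in P5 type 2 and 38.8% in P5 type 3.

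Cacna1a, the P/Q-type subunit that takes over release at many mature synapses, was at a lower pooled level per kb of exon than Cacna1b in every group, although the genes were nearly equal in P2 type 2 as a mean of the shares of each cell (11.8% against 11.7%) and without the highest cells (5.35% against 5.38%). Its pooled level was 8.64 RPM at E18, between 0.0960 and 4.57 RPM in the P2 types, and 6.09, 19.6 and 33.1 RPM in P5 types 1, 2 and 3, where 1 cell held 69.2% of the type 3 read pairs. Cacna1e, the R-type subunit, was above threshold in 17.1% of E18 cells and 36.4% of P5 type 3 cells. The 12 E18 cells with excitatory markers stood at 199 RPM of Cacna1e against 25.5 RPM in the other E18 cells, and held 58.2% of its E18 read pairs.

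Cacna1g, a T-type subunit of low-voltage bursts, was above 10 RPM in 19.5% of E18 cells and in 8.82%, 15.8% and 40.9% of P5 types 1, 2 and 3. Its pooled level in P5 type 3 was 60.02 RPM (38.2 RPM without the highest cell) against 5.59 and 7.92 RPM in P5 types 1 and 2. The other T-type genes stayed below the 25% share, as Cacna1h reached 20.7% of E18 cells and Cacna1i 3.66%. No read pair of Cacna1h was counted in the 13 cells of P2 type 3, where Cacna1g supplied 55.9% of the alpha1 RPM per kb, 72.2% of it from 1 cell.

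Of the alpha2delta genes, Cacna2d3 was above 10 RPM in 20.7% of E18 cells, in 9.09%, 19.4% and 23.1% of P2 types 1, 2 and 3, and in 5.88% (2 of 34), 21.1% and 54.5% (12 of 22, 32.2% to 75.6%) of P5 types 1, 2 and 3. The median cell of P5 type 3 was at 13.2 RPM and the medians of all other groups were 0. Cacna2d4 was low in every group, with pooled levels from 3.84 RPM in P5 type 1 to 12.2 RPM in P5 type 3, but no cell held more than 25.4% of the read pairs of its group, and the median cell of P5 type 3 was at 9.33 RPM. Cacna2d1, the target of gabapentin, reached 22.7% of P5 type 3 cells and Cacna2d2 12.9% of P2 type 2 cells.

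The beta subunits bind the alpha1 subunit in the cytoplasm and carry it to the membrane. Per kb of exon, Cacnb4 was the highest of the 4 in every group except P2 type 3 and P5 type 3, where Cacnb3 was highest (12.6 against 7.44 RPM per kb in P5 type 3). In P2 type 3 only 2 of 13 cells were above threshold for Cacnb3, and as a mean of the shares of each cell Cacnb4 led there (57.5% against 15.1%). Cacnb4 was above 10 RPM in 45.1% of E18 cells (37 of 82), in 27.3%, 51.6% and 7.69% of P2 types 1, 2 and 3, and in 38.2%, 47.4% and 22.7% of P5 types 1, 2 and 3. Its pooled level was 113 RPM at E18, 166, 106 and 7.14 RPM in P2 types 1, 2 and 3, and 102, 65.9 and 66.7 RPM in P5 types 1, 2 and 3. Cacnb3 stood at 34.4 RPM at E18 and at 30.7, 22.4 and 50.7 RPM in P5 types 1, 2 and 3, but at 0.529 RPM in P2 type 1. Cacnb2 was highest in P5 type 2 (45.6 RPM), where the 3 cells with astrocyte markers stood at 126 RPM and the other 16 at 29.5 RPM.

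Among the gamma genes, Cacng4 was detected most widely except in P2 type 3, in 58.5% of E18 cells, in 50%, 48.4% and 23.1% of P2 types 1, 2 and 3, and in 76.5%, 84.2% and 54.5% of P5 types 1, 2 and 3. Its pooled level was between 53.4 and 149.8 RPM in all groups, although 1 cell held 92.2% of the P2 type 3 read pairs. Cacng2 encodes stargazin, the founding TARP. It was above threshold in 20.7% of E18 cells and 45.5% of P5 type 3 cells, and stood at 60.8 RPM at E18 and 15.6, 30.8 and 34.1 RPM in P5 types 1, 2 and 3.

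Cacng3, another TARP, was at 99.6 RPM at E18 (22 of 82 cells, highest cell 2372 RPM) and at 49 RPM in P2 type 2 (6 of 31 cells). No read pair was counted for it in the 22 cells of P2 type 1 or the 13 cells of P2 type 3, which allows shares of up to 13.6% and 23.1% by the same limit of 3 cells (exact intervals up to 15.4% and 24.7%). At P5 it was at 0.00867, 9.96 and 7.98 RPM in types 1, 2 and 3, with 0, 3 and 2 cells above threshold. At E18 it differed by library set, with 130.1, 4.85 and 71 RPM in sets B, C and D, and P5 lay below E18 in each set (0, 0.00603 and 8.29 RPM). It also went with MGE markers, as the 62 E18 cells with such a marker stood at 129 RPM and held 99.1% of its read pairs (76.3% of all mapped read pairs), and the other 20 stood at 3.71 RPM.

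The other 21 genes stayed below 25% of cells in every group. No read pair was counted in any cell for Scn4b, Scn7a or Scn10a. Scn4a, Scn11a and Cacna1s were never above 10 RPM. Scn9a, an alpha subunit best known from sensory neurons, was above threshold in 18.2% of P5 type 3 cells. Cacnb1 reached 19.5% of E18 cells, Cacng5 and Cacng7 each 10.5% of P5 type 2 cells, and Cacng1, Cacng6, Cacng8 and Cacna1f no more than 2 cells each in the whole data set.

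Every cell had at least 1 of the 40 genes above 10 RPM. The median number per cell was 6 at E18, 3.5, 6 and 3 in P2 types 1, 2 and 3, and 5, 7 and 8 in P5 types 1, 2 and 3, with up to 18 in a cell of P5 type 2. Apart from P5 type 3, the groups with a higher median had more genes of any kind above threshold, or nearly the same number. Per 1000 genes above threshold, summed over cells, there were 4.20 channel genes in P5 type 3 and between 2.06 and 2.72 in the other groups.

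**Figure D4:**
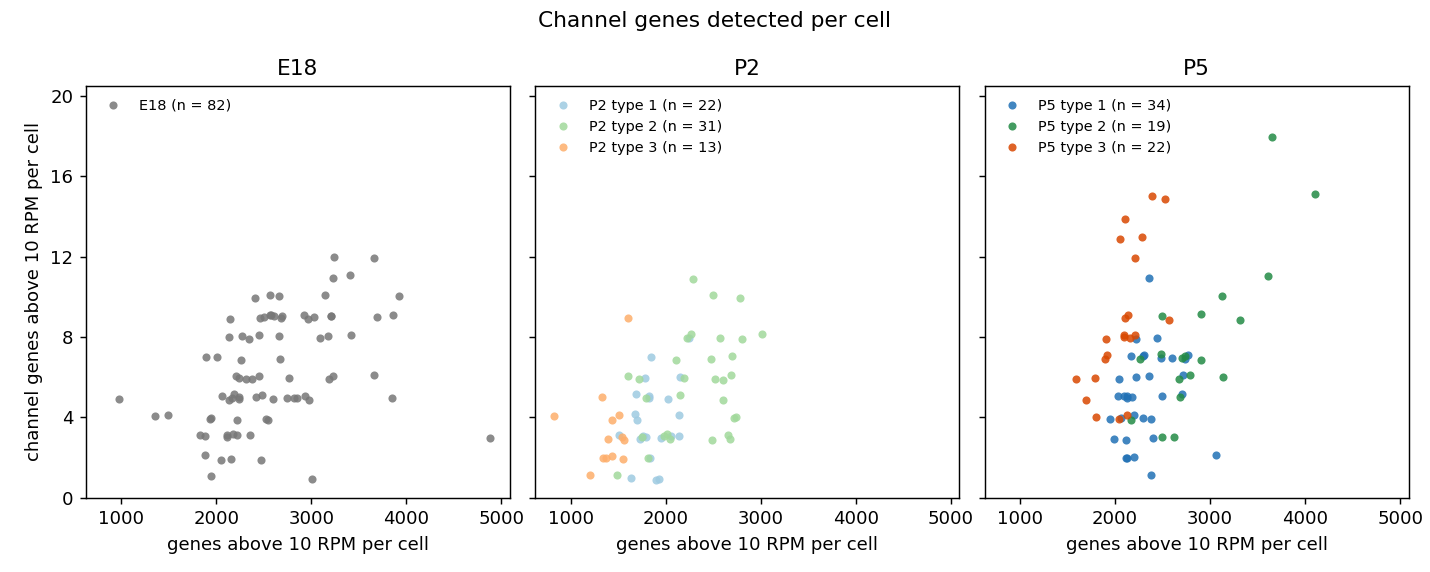
Channel genes above 10 RPM (vertical axis, count per cell with a small vertical jitter) against all genes above 10 RPM (horizontal axis, count per cell) in the panels E18, P2 and P5, with types in colour. Each point is 1 cell. Cells of P5 type 3 hold a median of 8 channel genes with a median of 2101.5 genes above threshold.

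At least 1 sodium channel alpha subunit was above 10 RPM in 87.8% of E18 cells (72 of 82, 78.7% to 94.0%), in 68.2%, 83.9% and 69.2% of P2 types 1, 2 and 3, and in 70.6% (24 of 34, 52.5% to 84.9%), 100% and 100% of P5 types 1, 2 and 3. At least 2 calcium channel alpha1 subunits were above threshold in 81.8% of P5 type 3 cells (18 of 22, 59.7% to 94.8%), compared with 44.1% and 52.6% of P5 types 1 and 2 and 40.2% of E18 cells. Scn2a and Scn3a were above threshold together in 19 of 82 E18 cells, 2 of 34 P5 type 1 cells, 11 of 19 P5 type 2 cells and 9 of 22 P5 type 3 cells. Scn2a without Scn3a was seen in 7 E18 cells and Scn3a without Scn2a in 35.

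Fold differences were taken between pooled levels, as log2 after addition of 1 RPM, over genes that passed 10 RPM in 5% or more of the cells compared. This filter passed 25 of the 40 channel genes in the comparisons with E18 and among P5 types and 22 among P2 types, and a gene could pass through its high group alone. Counts of genes past 2-fold are read against the same count over all genes. Genes are named below where they passed 2-fold in the same direction both in the pooled level and in the mean over cells of log2 RPM plus 1, which gives single high cells less weight.

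Between E18 and P5 Cacna1c was higher and Cacng3 lower by the rule of both scales. Of 25 channel genes compared, 1 was at least 2-fold higher at P5, where 11.9% of all 9808 genes were, and 6 were at least 2-fold lower, where 19.6% of all genes were. The median log2 difference was -0.04 for the channel genes and -0.17 for all genes, over genes that went both ways. The library sets differed, with 1 of 23 higher and 12 lower in set B (19.3% and 33.9% of all genes), 8 of 22 and 5 in set C (27.7% and 30.6%), and 7 of 26 and 7 in set D (18.8% and 26.2%). Cacna1c was higher at P5 on both scales (107 against 46.4 RPM, log2 1.19) and in each library set (1.73, 0.64 and 1.29 in sets B, C and D). The P5 types differed, as Cacna1c stood at 9.07, 0.966 and 1.40 RPM per kb of exon in types 1, 2 and 3. Types 2 and 3 thus lay below E18 (2.19 RPM per kb), and type 1 made up 34 of the 75 P5 cells. Cacng3 was lower on both scales (4.58 against 99.6 RPM, log2 -4.17) and in each set, with no read pair in P5 cells of set B and differences of -2.54 and -2.95 in sets C and D. Among cells without an MGE marker, the Cacng3 difference was no longer seen (4.53 against 3.71 RPM, log2 0.23), that of Cacna1c was just under 2-fold (104 against 53.2 RPM, log2 0.96), and 3 of 25 channel genes were higher and 3 lower (24.9% and 21.2% of all genes). Neither gene then passed 2-fold on both scales, and the median over all genes was 0.05. Scn3a stood at 136 RPM at E18 and 166 RPM at P5.

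At P2 against E18, 1 of 25 channel genes was at least 2-fold higher (11.5% of all 9293 genes) and 9 were at least 2-fold lower (21.8% of all genes). The median log2 difference was -0.69 for the channel genes and -0.21 for all genes. Cacna1b (20.8 against 67.2 RPM, log2 -1.64), Cacnb3 (6.38 against 34.4 RPM, log2 -2.26) and Cacng3 (24.5 against 99.6 RPM, log2 -1.98) were lower on both scales. Among cells without an MGE marker, 1 of 24 channel genes was higher and 9 lower (24.1% and 23.9% of all genes), with a median of 0.0078 over all genes. The difference was then -0.76 for Cacna1b, -1.69 for Cacnb3 and 0.87 for Cacng3, and none of the 3 passed 2-fold on both scales. The 2 comparisons share the E18 cells, and all P2 cells are of set A.

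At P2 Scn1a was higher in type 2 than in types 1 and 3 (8.42 against 1.36 and 0.684 RPM per kb of exon). The highest type 2 cell was at 1450 RPM. Each type was set against the other P2 cells, so the P2 comparisons share cells. In type 1, 3 of 22 channel genes were at least 2-fold higher than in the other P2 cells (19.4% of all 8400 genes) and 9 were at least 2-fold lower (31.9%). Cacna1c was higher on both scales (log2 2.30), and Scn1a (-2.24), Cacng2 (-3.87) and Cacng3, with no read pair in type 1, were lower. Without cells with an MGE marker, Cacna1c was past 2-fold in the pooled level only (log2 1.64, mean over cells 0.54) and Cacng3 no longer passed the filter. In type 2, 9 of 22 were higher (28.1%) and 3 lower (19.9%), and Scn1a (log2 2.75), Scn2a (2.54) and Cacng3 were higher on both scales. Without cells with an MGE marker, Cacng3 in type 2 was at 17.1 RPM with 2 of 22 cells above threshold, and did not pass the filter. In type 3, 1 of 22 was higher (16%) and 13 lower (53.4%), and Scn2a (log2 -3.91), Cacna1c (-2.42), Cacnb4 (-4.02) and Cacna1h, with no read pair in type 3, were lower on both scales. Type 3 had the fewest cells and the fewest genes above threshold at P2, and its median log2 difference was -1.26 over all genes and -1.77 over the channel genes, so the low levels were not limited to channels.

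At P5 type 1 had Cacna1c at a higher level than the other P5 cells pooled, and 9 channel genes lower, by the rule of both scales. Of 25 channel genes, 2 were at least 2-fold higher in type 1 than in the other P5 cells (23.6% of all 9675 genes) and 12 were at least 2-fold lower (23.7%), with a median log2 difference of -0.59 for the channel genes and 0.04 for all genes. Cacna1c was higher on both scales (log2 2.90) and in each library set (1.47, 6.16 and 2.49 in sets B, C and D). Type 1 had 11, 11 and 12 cells in these sets, and the other P5 types had 4, 6 and 31. Lower on both scales were Scn1a (log2 -1.99), Scn2a (-2.62), Scn3b (-2.66), Cacna1d (-5.17), Cacna1b (-1.07), Cacna1g (-2.38), Cacna2d3 (-2.20), Cacnb2 (-3.23) and Cacng2 (-1.01). The other P5 cells are types 2 and 3 together. Per kb of exon, Cacna2d3 stood at 0.779, 0.723 and 7.45 RPM in types 1, 2 and 3. Scn1a (0.701, 1.19 and 5.03) and Cacna1g (0.551, 0.781 and 5.92) were also far lower in type 2 than in type 3. Scn2a was low in type 1 alone (1.88, 12.1 and 11.9). Cacna1d was lower in type 1 in each set (-4.53, -7.58 and -4.22), as was Scn2a (-3.60, -5.37 and -1.01), whereas Scn1a was higher in type 1 in set B (0.63), and Cacna2d3 (0.48) and Cacnb2 (0.60) were higher in set C. Cacng2 fell just short of 2-fold without cells with an MGE marker (-0.96).

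In P5 type 2, 4 of 25 channel genes were at least 2-fold higher (23.5% of all genes) and 5 were at least 2-fold lower (21.8%). Scn2a (log2 1.20) and Cacnb2 (2.71) were higher and Cacna1c (-2.69) was lower on both scales. In set C alone, with 3 type 2 cells, the Cacnb2 difference was -0.20. The 3 cells with astrocyte markers held 46.1% of the type 2 read pairs of Cacnb2. The other 16 type 2 cells stood at 29.5 RPM of Cacnb2, and the part of the marked cells in the difference was not tested.

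In P5 type 3 the channel genes lay higher than genes at large. Of 25 channel genes, 11 were at least 2-fold higher than in the other P5 cells (14.7% of all genes) and 4 were at least 2-fold lower (45.7%), and the median log2 difference was 0.68 for the channel genes and -0.78 for all genes. Higher on both scales were Scn1a (log2 2.41), Scn2a (1.12), Scn3b (2.41), Cacna1d (3.50), Cacna1b (1.33), Cacna1g (3.04), Cacna2d3 (3.11) and Cacna2d4 (1.29), and Cacna1c (-2.12) was lower. Scn2a was at a like level in types 2 and 3 (12.1 and 11.9 RPM per kb of exon), so its difference is not particular to type 3. Scn1a (0.96, 3.34 and 2.37 in sets B, C and D), Scn2a (3.52, 2.14 and 0.40), Cacna1b (0.67, 2.47 and 0.79) and Cacna1g (2.05, 3.40 and 3.00) were higher in each set. In set B, where type 3 had 2 cells, Cacna1d was lower (-3.31) and Cacna1c higher (0.19), and in set C, where it had 3 cells, Cacna2d3 was lower (-0.96). Without cells with an MGE marker, the mean over cells of Cacna1c differed by less than 2-fold (-0.93, pooled -2.09). The share of read pairs on genes was low in this type, and scaling by the total count per cell in place of mapped read pairs moved the all-gene split to 28.1% higher and 34% lower and gave 13 channel genes higher and 3 lower. The all-gene median was then -0.09, and it was -0.34 with TMM and -0.36 with DESeq2 scale factors. The 3 P5 comparisons rest on the same 75 cells.

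A list of 20 partner genes (intracellular fibroblast growth factors, ankyrin-G and other anchors, the sodium leak channel complex and regulators of calcium channels) was counted in the same way. At P5 against E18, 2 of 13 partners were at least 2-fold higher (11.9% of all genes) and 4 lower (19.6%), among them Nedd4l, a ubiquitin ligase that removes sodium channels (95.4 against 198 RPM), and Rem2, a small GTPase that restrains calcium channels (28.7 against 89.0 RPM). At P2 against E18, 2 of 13 were higher (11.5% of all genes) and 2 lower (21.8%). Without cells with an MGE marker, 4 of 14 were higher and 5 lower at P5 (24.9% and 21.2% of all genes) and 4 of 13 and 4 at P2 (24.1% and 23.9%). In P2 types 1, 2 and 3, 1, 7 and 0 of 12 were higher (19.4%, 28.1% and 16% of all genes) and 4, 0 and 9 were lower (31.9%, 19.9% and 53.4%) than in the other P2 cells. In P5 types 1, 2 and 3, 2, 5 and 3 of 14 were higher (23.6%, 23.5% and 14.7% of all genes) and 5, 2 and 5 were lower (23.7%, 21.8% and 45.7%) than in the other P5 cells. Ank3, which encodes the ankyrin that holds sodium channels at the initial segment, stood at 146 RPM in P5 type 1 and 571 RPM in the other P5 cells (log2 -1.96), with 21 of 34 and 39 of 41 cells above threshold.

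Promoter sequence from RefSeq (GRCm38.p6) was available for 30 of the 40 genes, with 41 transcription starts. It is shown for Cacna1c, Cacna1d and Scn2a, genes past 2-fold on both scales among the P5 types that were picked after their values were seen, at 1 of their 3, 2 and 2 starts, also picked. It is given as 150 bases that end 30 bases before the annotated start, 5′ to 3′ on the strand of the gene. Capitals mark the motifs searched on both strands, which were TGACAG (the core bound by MEIS factors), TATAAA (the TATA box), CCGCCC (the GC box) and TGACGT (the CRE core). GC boxes that overlap are run together in capitals.
Cacna1c, first start, chr6:119196440-119196589 (minus strand): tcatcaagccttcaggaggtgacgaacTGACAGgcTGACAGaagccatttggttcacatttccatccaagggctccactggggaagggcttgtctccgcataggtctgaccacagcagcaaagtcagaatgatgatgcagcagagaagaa
Cacna1d, second start, chr14:30353517-30353666 (minus strand): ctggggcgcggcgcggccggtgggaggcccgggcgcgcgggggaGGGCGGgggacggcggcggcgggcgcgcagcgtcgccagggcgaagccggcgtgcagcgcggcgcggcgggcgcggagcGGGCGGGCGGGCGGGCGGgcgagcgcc
Scn2a, first start, chr2:65620589-65620738 (plus strand): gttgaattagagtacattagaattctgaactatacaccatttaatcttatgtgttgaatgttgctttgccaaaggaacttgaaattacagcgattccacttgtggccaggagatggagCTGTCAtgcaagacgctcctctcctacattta

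Within the 250 bases before a start, TGACAG was found at 5 of the 41 channel gene starts (12.2%) and at 15.9% of all 32851 starts, TATAAA at 4.88% and 12.4%, CCGCCC at 36.6% and 32.7%, and TGACGT at 2.44% and 6.47%. The first start of Cacna1c holds TGACAG at 2 places and the first start of Scn2a at 1, and the other starts of these genes do not hold it. A match is a run of letters and not a site of binding, and which start was used in these cells was not measured here.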

How the data were processed

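Count values are whole read pairs per gene, deposited by the authors as 1 table with a per-cell factor for mapped read pairs. According to the submitters' processing notes, reads were mapped to GRCm38 (mm10) with TopHat2 and counted with HTSeq 0.6.1. The strand setting of the count is not given in the sources used here. Symbols were matched for 42462 of 43629 genes, and genes without a symbol held 0.313% of read pairs. Exon lengths, coordinates and transcripts come from GENCODE M21 (GRCm38), which is not the annotation the authors counted on. RPM was the count times the deposited factor. Ages and types were compared by pooled RPM with a pseudocount of 1 RPM, for genes that passed 10 RPM in 5% or more of cells, with exact 95% Poisson and binomial intervals. Each group was 1 sample, so no test was run and no p-value is given. Values of 2 of the 40 genes and some sequences are not reported here. Cells carried 1596087 to 11692823 counts. The fold script was tested on simulated data. Genes were described if above 10 RPM in at least 25% of a group's cells, and folds named if past 2-fold on both scales. Members were taken by symbol, but this gene family and the lists were picked for description with earlier results of these data known. Alternatives were other thresholds, filters, pseudocounts and scale factors, thinned counts, single library sets, and cells left out, of which leaving out cells with an MGE marker was added after seeing the data. Python 3.11.15, numpy 2.4.6, scipy 1.17.1, pandas 2.3.3, matplotlib 3.10.9, R 4.3.3, and, for scale factors only, edgeR 4.0.16 and DESeq2 1.42.0 were used.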

Additional observations from a re-analysis of the deposited data

How the results depend on the processing

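Of 452 recomputed values of the 38 fold differences named by rule, 443 kept their sign, and of 216 recomputed gene counts 150 stayed within 1.5 times the reported count. The values that moved are listed here by setting, and the cause was not tested. With 1 sample per group there is no replicate to leave out. No paired analysis was possible because each group was 1 sample and no test was run, and differences within a library set are given as values. Sparse detection limits all shares, and a cell below threshold may still express the gene.

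Of the 9 folds that changed sign, 2 did so without cells with an MGE marker, a setting added after the data were seen (Cacng3 at P5, 0.23, and at P2, 0.87, against E18). In that setting 28 of the 38 folds passed 2-fold on both scales, and those lost were all 5 against E18, Cacna1c and Cacng3 in P2 type 1, Cacng3 in P2 type 2, Cacng2 in P5 type 1 and Cacna1c in P5 type 3. The other 7 sign changes were in a single library set: in set B, Scn1a in P5 type 1 (0.63), Cacna1c in P5 type 3 (0.19) and Cacna1d in P5 type 3 (-3.31), and in set C, Cacna2d3 in P5 type 1 (0.48), Cacnb2 in P5 type 1 (0.60), Cacnb2 in P5 type 2 (-0.20) and Cacna2d3 in P5 type 3 (-0.96).

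With a threshold of 1 RPM, cells with a calcium alpha1 gene came to 93.9% at E18, 90.3% in P2 type 2, 94.1% in P5 type 1 and 100% in P5 type 3, and cells with a sodium alpha gene to 91.2% in P5 type 1. With a threshold of 1 read pair, the sodium share was 98.8% at E18, 100% in all P2 types and 97.1% in P5 type 1, and the calcium share was 92.3% in P2 type 3 and 100% in the other groups.

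Counts of channel genes past 2-fold that moved by more than 1.5 times are given of the number compared, with the share of all genes in the same comparison in parentheses. By the mean of log2 RPM there were 3 of 25 higher and 1 lower for P5 against E18 (2.79% and 9.17%), 0 of 25 higher and 5 lower for P2 against E18 (0.753% and 17.9%), 1 of 22 higher and 4 lower for P2 type 1 (6.86% and 9.94%), 5 of 22 higher and 0 lower for P2 type 2 (20.8% and 1.18%), 0 of 22 higher and 5 lower for P2 type 3 (2.87% and 27.1%), 1 of 25 higher for P5 type 1 (9.35%), and 1 of 25 lower for P5 type 2 (1.67%). With total-count scaling there were 3 of 25 higher for P5 against E18 (15.9%), and 2 of 22 higher for P2 type 3 (19%). With TMM factors there were 2 of 25 higher for P5 against E18 (15.4%), 6 of 22 higher for P2 type 1 (23.7%), and 3 of 22 higher for P2 type 3 (25.8%). With DESeq2 factors there were 2 of 25 higher for P5 against E18 (14.8%), 6 of 22 higher for P2 type 1 (23.7%), and 5 of 22 higher for P2 type 3 (28.9%). With no filter there were 2 of 36 higher for P5 against E18 (10.2%), 2 of 37 higher for P2 against E18 (10.6%), and 5 of 32 higher for P2 type 1 (13.8%). With a filter of 25% of cells there were 3 of 10 lower for P5 against E18 (14.4%), 0 of 9 higher and 2 lower for P2 against E18 (4.97% and 16.2%), 1 of 8 higher and 2 lower for P2 type 1 (15.6% and 22.5%), 2 of 8 higher and 1 lower for P2 type 2 (24.1% and 11.2%), 0 of 7 higher and 4 lower for P2 type 3 (15.7% and 41.3%), 1 of 16 higher for P5 type 1 (22.4%), 2 of 15 higher and 2 lower for P5 type 2 (25.4% and 10.5%), and 1 of 16 lower for P5 type 3 (43.6%). Without cells with 3 markers of another cell type there were 3 of 25 higher for P5 against E18 (13.2%), and 0 of 24 higher for P2 against E18 (13.1%). Without cells with an MGE marker there were 3 of 25 higher and 3 lower for P5 against E18 (24.9% and 21.2%), 5 of 23 higher for P2 type 1 (21.6%), and 2 of 23 higher for P2 type 3 (16.4%). With thinned counts there were 2 of 25 higher for P5 against E18 (11.4%), and 2 of 22 higher for P2 type 3 (16.1%). In set B alone there were 12 of 23 lower for P5 against E18 (33.9%), 6 of 22 higher for P5 type 1 (50.6%), 7 of 22 higher and 11 lower for P5 type 2 (21.9% and 58.7%), and 6 of 22 higher for P5 type 3 (14.5%). In set C alone there were 8 of 22 higher for P5 against E18 (27.7%), 5 of 26 higher for P5 type 1 (37.1%), 7 of 26 higher and 11 lower for P5 type 2 (27.3% and 46.4%), and 10 of 26 lower for P5 type 3 (60.1%). In set D alone there were 7 of 26 higher for P5 against E18 (18.8%), 4 of 25 higher for P5 type 1 (22.8%), and 7 of 25 higher for P5 type 3 (16.2%). With a pseudocount of 10 RPM there were 0 of 25 higher for P2 against E18 (5.85%), 5 of 22 lower for P2 type 1 (21.9%), 5 of 22 higher for P2 type 2 (19%), 0 of 22 higher and 8 lower for P2 type 3 (12.4% and 40.6%), and 2 of 25 lower for P5 type 2 (11.4%). Without the highest cell of each gene there were 14 of 22 lower for P2 type 1 (43%), 0 of 22 higher for P2 type 3 (4.52%), and 8 of 25 lower for P5 type 2 (29.2%).

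The Scn3a share of the sodium alpha level was 44.6% at E18, 37.1%, 47.2% and 67.6% in the P2 types and 49.95%, 54.5% and 36% in the P5 types as a mean over cells. Without exon length it was 39.3% at E18, 60.4% in P2 type 1, 72.8% in P2 type 3 and 54%, 51.1% and 35.2% in the P5 types. Without the highest cell it was 42.2%, then 67.9%, 56.4% and 96.6% in the P2 types and 60.5%, 61.9% and 41.7% in the P5 types.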
